A study of Mus musculus with 9 samples.

Results

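Mitochondrial ribosomal protein genes were described in sorted mouse thymocytes that lack the splicing factor SRSF1 and in their wild-type counterparts. The members are the rows of the deposited count table whose Ensembl gene ID carries a mouse symbol of the form Mrpl or Mrps followed by a digit. Of 83 such rows, 5 with pseudogene symbols were left out, and the 78 protein-coding members stand among 53715 genes in all. The SRSF1KO group comprised 2 RNA-seq libraries of the genotype Srsf1 fl/fl Lck cre/+, in which Cre is expressed from Lck, a gene of the T cell lineage. The WT group comprised 3 libraries, and its labels give no allele beyond WT. All 5 came from the thymus of C57BL/6 mice aged 6 to 8 weeks and from cells sorted as TCRβ+ CD69+ CD24+ CD4+ CD8+. That phenotype belongs to thymocytes that have begun to receive T cell receptor signals. Whether each library came from its own animal is not stated in the labels, so the p-values here speak to variation among these 5 libraries alone, which may be technical. The 4 CLIP-seq samples of the series were not analysed here.

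Mitochondria have their own ribosome, the mitoribosome, which translates the messenger RNAs of the mitochondrial genome into core subunits of the respiratory chain and ATP synthase. All of its proteins are encoded in the nucleus, made in the cytosol and imported. Many descend from bacterial ribosomal proteins and others exist only in mitochondrial ribosomes. Cells need the mitoribosome to build respiratory complexes, which T cells draw on as they are activated and differentiate. Symbols do not always tell the place of a protein: Mrps30 and Mrps18a belong to the large subunit, and Mrps36 has been assigned to the 2-oxoglutarate dehydrogenase complex instead of the ribosome. By structure the 78 members therefore split into 51 of the large subunit, 26 of the small subunit and Mrps36.

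The libraries were of similar depth, and the deleted gene was lower in both SRSF1KO libraries. Totals ran from 36026006 to 36062595 counts in SRSF1KO and from 36487359 to 38985285 counts in WT. Srsf1 stood at 42.6 and 30.9 CPM (counts scaled to a common library size and normalised by the TMM method) in SRSF1KO, against 96.9, 122.7 and 103.1 CPM in WT. Its log2 fold change was −1.55 ± 0.19 (SE), with an adjusted p of 0.0483 in the quasi-likelihood test of edgeR. With any 1 of the 5 libraries left out the adjusted p lay between 0.0509 and 0.220, above the threshold of 0.05. The gate genes Cd4, Cd8a, Cd8b1, Cd69, Cd24a, Trbc1, Trbc2 and Cd3e were all present, with summed levels of 9107 to 10810 CPM in SRSF1KO and 9015 to 9848 CPM in WT. Sex-linked transcripts split both groups: SRSF1KO replicate 1 and WT replicate 2 carried the male pattern, with more Ddx3y than Xist. Ddx3y held 5699 counts in SRSF1KO replicate 1 and 5803 in WT replicate 2, against 23 to 141 in the other libraries. Xist held 282 and 1369 counts in them, against 14784 to 21400 in the other libraries. The source of the Xist counts of WT replicate 2 was not examined. The 10 most abundant genes held 10.2% and 9.92% of all counts in SRSF1KO, against 6.77%, 8.27% and 8.15% in WT.

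The sequences below come from genes that the results turn on, read from RefSeq promoters of GRCm38.p6, which covered 69 of the 78 members. Mrps30 had the most negative and Mrps5 the most positive fold change. Mrps12 shares its promoter region with Sars2, the mitochondrial seryl-tRNA synthetase gene. Mrpl46 and Mrps11 start 41 bases apart in opposite directions and differed in sign. The first 3 run from 150 bases before the start site through the first 30 bases of the transcript, and the last spans both start sites with 30 bases of either gene.
Mrps30, chr13:118387223-118387402, minus strand: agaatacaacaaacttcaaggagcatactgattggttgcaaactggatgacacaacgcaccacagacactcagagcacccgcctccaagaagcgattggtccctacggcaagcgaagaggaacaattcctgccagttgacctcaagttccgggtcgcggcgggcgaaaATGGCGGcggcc
Mrps5, chr2:127587276-127587455, plus strand: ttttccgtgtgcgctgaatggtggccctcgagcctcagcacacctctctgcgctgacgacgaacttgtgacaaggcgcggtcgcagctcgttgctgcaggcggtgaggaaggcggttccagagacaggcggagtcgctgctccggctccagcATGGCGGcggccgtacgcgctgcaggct
Mrps12, chr7:28741792-28741971, minus strand: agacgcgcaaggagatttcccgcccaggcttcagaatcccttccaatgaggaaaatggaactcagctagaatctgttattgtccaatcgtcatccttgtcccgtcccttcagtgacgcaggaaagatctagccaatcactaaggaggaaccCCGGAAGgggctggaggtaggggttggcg
Mrpl46-Mrps11, chr7:78783060-78783160, plus strand: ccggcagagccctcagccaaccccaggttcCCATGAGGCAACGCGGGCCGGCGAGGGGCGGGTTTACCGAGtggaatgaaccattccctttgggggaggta
Capitals mark the letters ATGGCGG, the core bound by the factor YY1, in Mrps30 and Mrps5. They mark CCGGAAG, the core bound by ETS factors such as GABP, in Mrps12, and the bases between the start sites in the shared region. The ATGGCGG of Mrps30 begins 18 bases past the start site and that of Mrps5 begins 2 bases past it. Both contain ATG, and whether either is the start codon was not examined.

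Most mitochondrial ribosomal protein genes stood slightly lower in SRSF1KO than in WT, and none passed the test on its own. The median log2 fold change of SRSF1KO over WT was −0.13 over the 77 members tested, against −0.01 over all 17351 genes tested. Of the members, 61 had a negative log2 fold change (79.2%) and 16 a positive one (20.8%), while 50.6% of all tested genes were negative and 49.4% positive. With DESeq2 size factors or upper-quartile factors in place of TMM, 58 members were negative. With edgeR 0 members were lower and 0 higher at an adjusted p under 0.05, where 0.213% of all tested genes were called lower and 0.0519% higher. At an unadjusted p under 0.05 edgeR placed 11 members lower (14.3%) and 1 higher (1.30%), against 8.45% and 5.9% of all tested genes. The count lower varied with single libraries and was 4 (5.19%, against 7.90% of all tested genes) without SRSF1KO replicate 2 and 6 (7.79%, against 6.27%) without WT replicate 1. Without WT replicate 2 it was 7 (9.09%, against 6.72%), and without WT replicate 3 it was 8 (10.4%, against 6.53%). DESeq2 called 2 members lower (2.60%), Mrps30 and Mrpl23, and 0 higher. Of all the genes to which it gave an adjusted p, 3.87% were called lower and 2.34% higher. With limma-voom 0 were lower and 0 higher.

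The fold changes were small and lay close together. They ran from −0.63 for Mrps30 to 0.39 for Mrps5, and the lower and upper quartiles were −0.31 and −0.03. The standard errors were between 0.11 and 0.30, so shifts of the median size could not be resolved for single genes. Among the 6651 tested genes within the members' range of mean level, 9.91 to 112.7 CPM, the quartiles were −0.25 and 0.21 and the median −0.01. In that range 52.0% of genes were negative.

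**Figure D1:**
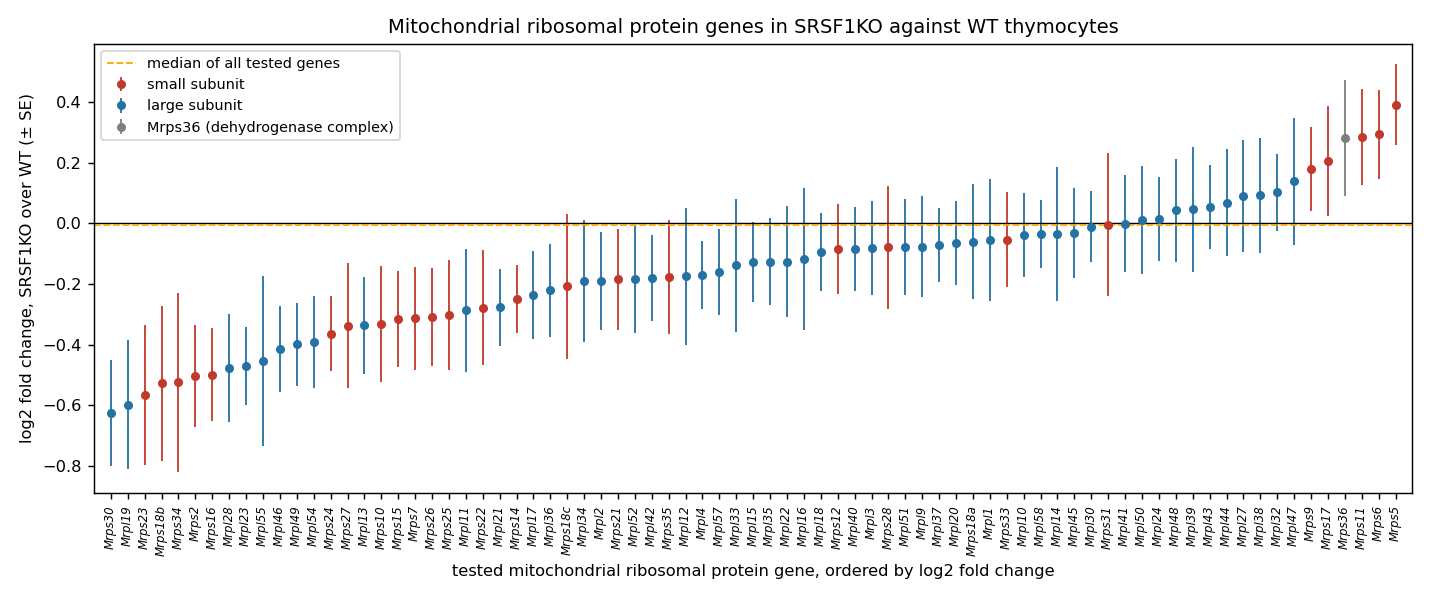
Log2 fold change of SRSF1KO over WT (vertical axis, ± SE) for each of the 77 tested members, ordered along the horizontal axis and coloured by ribosomal subunit. Most points lie below 0, from −0.63 for Mrps30, and the 6 at the far right, Mrps9 to Mrps5, are 5 genes of the small subunit and Mrps36.

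Both SRSF1KO libraries were below all WT libraries for 28 members (36.4%) and above all of them for 5 (6.49%). Over all tested genes the shares were 17.8% and 15.2%, and within the members' range of level they were 19.9% and 15.4%. The 5 higher members were Mrps5, Mrps6, Mrps11, Mrps36 and Mrps9. Against the mean of the WT libraries, 57 of 77 members were below in SRSF1KO replicate 1 and 56 in replicate 2, with medians of −0.13 and −0.12. Each WT library set against the other WT libraries had 37 to 45 members below and a median between −0.04 and 0.02. Summed over the members, levels were 3618 and 3629 CPM in SRSF1KO, against 4017, 4022 and 3941 CPM in WT. Both SRSF1KO sums lay below the WT sums. In bulk RNA, fewer cells that express a gene and less RNA per cell cannot be told apart.

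**Figure D2:**
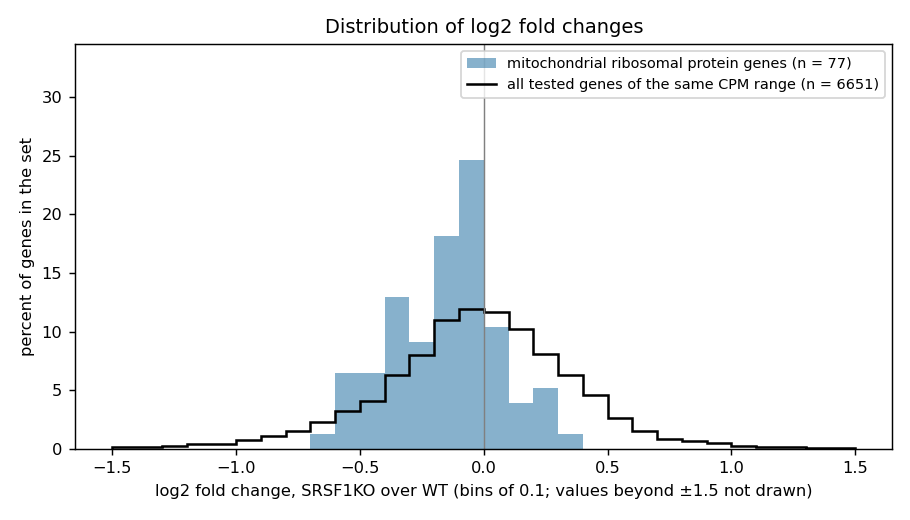
Percent of genes (vertical axis) in bins of log2 fold change, SRSF1KO over WT (horizontal axis), for the 77 tested members (filled) and the 6651 tested genes of the same range of mean CPM (outline). The members centre at −0.13 and the other distribution at −0.01, and 51 genes of the outline lie beyond the drawn range.

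Several other properties of the libraries also separated the groups. The share of the 10 most abundant genes was higher in both SRSF1KO libraries, as given above, and the predicted gene Gm26917 alone held 4.47% and 4.14% of the counts, against 1.84%, 2.69% and 2.98% in WT. Markers of erythroid cells summed to 99.1 and 22.9 CPM in SRSF1KO, against 9.24, 12.7 and 2.54 CPM in WT. Both SRSF1KO sums were above the WT sums, and 0 of the 5 erythroid markers that were tested passed with edgeR. B cell markers summed to 49.1 to 52.9 CPM in SRSF1KO and 34.2 to 53.7 CPM in WT. The corresponding sums were 84.3 to 95.8 and 73.5 to 96.3 CPM for 8 myeloid and dendritic markers, 15.2 to 26.1 and 14.5 to 16.6 CPM for 8 stromal ones, and 17.9 and 18.6 to 40.0 CPM for 5 NK cell markers. No listed marker was under 0.1 CPM in every library. The part of these shares and cells in the values of the members was not tested. Within libraries of the female pattern the members' median difference was −0.13 (1 SRSF1KO, 2 WT), and within those of the male pattern it was −0.16 (1 of each). The medians over all tested genes were −0.003 within the female and −0.038 within the male pattern.

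Small-subunit genes had the lower median. Over the 26 genes of the small subunit the median log2 fold change was −0.26, with 21 negative and 5 positive, and over 50 tested genes of the large subunit it was −0.11, with 40 negative and 10 positive. The difference between the subunits was not tested. The small subunit also spread more widely, from −0.57 to 0.39, against −0.63 to 0.14 for the large. All 10 small-subunit genes classed as specific to mitochondria were negative (median −0.31), although Mrps31, at −0.00, turned positive with DESeq2 size factors or upper-quartile factors. The 16 with a bacterial counterpart held 11 negative and 5 positive genes (median −0.20). In the large subunit the 30 genes with a bacterial counterpart had a median of −0.13 and the 20 tested mitochondrial additions one of −0.07.

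In the large subunit Mrps30 and Mrpl19 stood lowest. Mrps30 (ENSMUSG00000021731.10, chromosome 13, 118380110 to 118387252), a protein specific to mitochondria, was at 34.9 and 38.5 CPM in SRSF1KO, against 52.5, 66.5 and 50.9 CPM in WT. The groups did not overlap, and WT replicate 2 was the highest library. Its log2 fold change was −0.63 ± 0.18 (SE; edgeR, adjusted p = 0.186), while DESeq2 gave −0.61 with an adjusted p of 0.0322. Mrpl19 (chromosome 6, 81957826 to 81965949), a counterpart of a bacterial large-subunit protein, was at 20.7 and 30.1 CPM in SRSF1KO, against 38.0, 35.7 and 41.6 CPM in WT. Both SRSF1KO libraries were below WT, replicate 1 further than replicate 2, and the log2 fold change of −0.60 ± 0.21 did not pass with edgeR (adjusted p = 0.277). Without SRSF1KO replicate 1 it was −0.35.

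Mrpl23 had the smallest p of the members in the edgeR test of the 17351 genes, while Mrps30 had it with DESeq2, without a filter and with a minimum of 5 CPM. This large-subunit gene (chromosome 7, 142532467 to 142540747), chosen after its values were seen, stood at 53.2 and 49.9 CPM in SRSF1KO, against 72.9, 68.4 and 73.1 CPM in WT. Libraries within either group lay close together, and the groups were apart. The log2 fold change was −0.47 ± 0.13 (edgeR, adjusted p = 0.175), and DESeq2 gave an adjusted p of 0.0403. A processed copy of the gene, Mrpl23-ps1, held 42 and 36 counts in SRSF1KO and 44, 37 and 53 in WT, against 1782 to 2814 counts for Mrpl23 itself. Mrpl28, also of the large subunit, averaged 59.2 ± 10.4 CPM in SRSF1KO (SD, n = 2) and 82.3 ± 12.3 CPM in WT (SD, n = 3). Its log2 fold change of −0.48 ± 0.18 had an edgeR adjusted p of 0.293, and the value was −0.29 without SRSF1KO replicate 2.

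The stalk genes did not pass the test. Mrpl12, the stalk protein that recruits translation factors and also binds the mitochondrial RNA polymerase, was at 20.3 and 29.6 CPM in SRSF1KO, against 30.03, 28.9 and 25.5 CPM in WT. The groups overlapped, with only SRSF1KO replicate 1 outside the WT range (log2 fold change −0.17 ± 0.23, edgeR adjusted p = 0.813). Without that library the value was 0.07, and without SRSF1KO replicate 2 it was −0.46. For Mrpl10 and Mrpl11, which form the base of the stalk, the log2 fold changes were −0.04 ± 0.14 and −0.29 ± 0.20, neither past the test. That of Mrpl11 was −0.13 without SRSF1KO replicate 1, −0.45 without SRSF1KO replicate 2 and −0.17 without WT replicate 3. Mrpl3 (−0.08 ± 0.16) and Mrpl4 (−0.17 ± 0.11), core proteins kept from the bacterial ribosome, did not pass either, and for Mrpl4 the groups did not overlap, though its value was −0.08 without SRSF1KO replicate 1.

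Other large-subunit genes lay near 0. Mrpl58, a peptidyl-tRNA hydrolase built into the large subunit, averaged 86.6 ± 5.09 CPM in SRSF1KO (SD, n = 2) and 88.8 ± 2.15 CPM in WT (SD, n = 3), a log2 fold change of −0.04 ± 0.11. Mrpl44, which carries a ribonuclease III-like domain, was at 0.07 ± 0.18. Mrpl41 had the smallest difference of all members, with 44.7 ± 6.45 CPM in SRSF1KO and 44.7 ± 1.43 CPM in WT, at −0.00 ± 0.16. Its sign turned with the scaling. Mrpl53 (chromosome 6, 83109108 to 83109932) was the member left out of the tests, since it was listed with 0 counts in all 5 libraries. A count of 0 allows up to 3 counts, or 0.0833 CPM in the shallowest library, a limit that covers counting error only. Every other member had a mean of at least 9.91 CPM, and whether the 0 of Mrpl53 comes from the annotation or counting step was not tested, so the limit holds for counted reads and not for the gene's expression. Its span overlaps that of Ccdc142 by 14 bases.

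**Figure D3:**
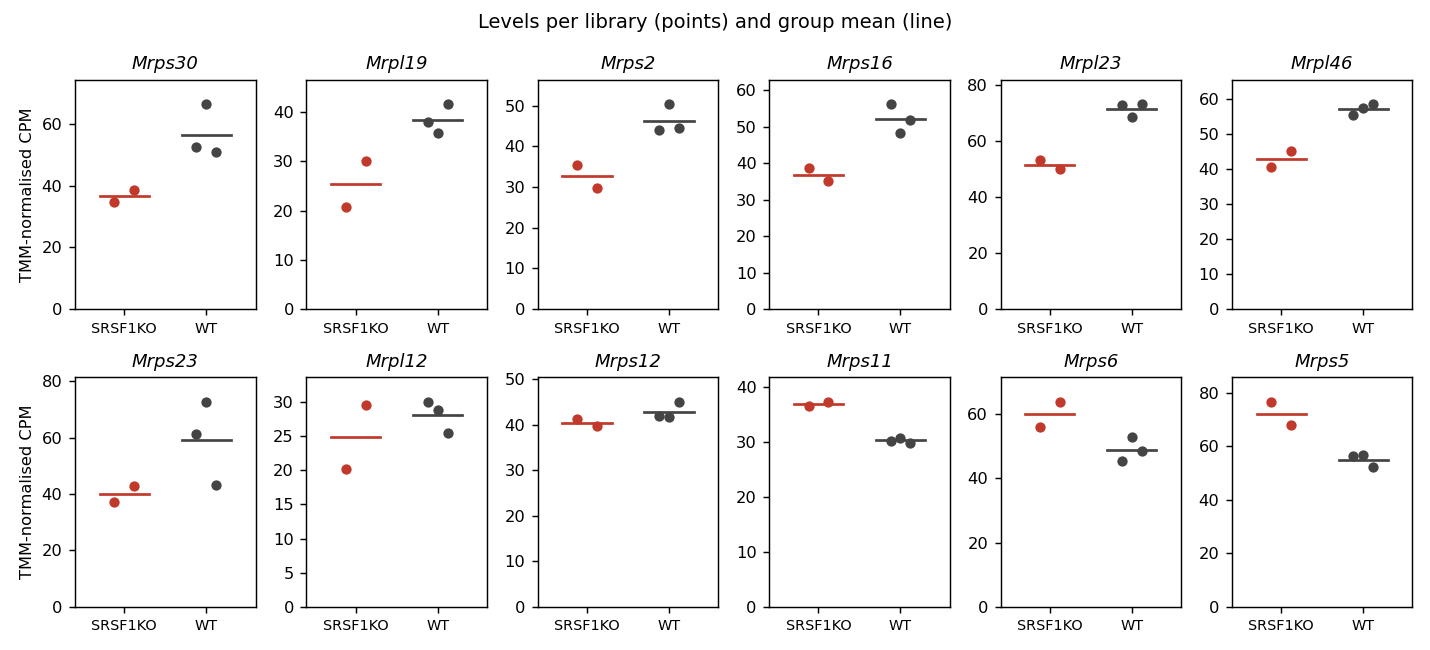
TMM-normalised CPM (vertical axis, from 0) of 12 members in the SRSF1KO libraries (left, red) and the WT libraries (right, grey), with points for libraries and lines for group means. The top 6 genes, Mrps23 and Mrps12 lie below all WT libraries in both SRSF1KO libraries, Mrpl12 overlaps, and Mrps11, Mrps6 and Mrps5 lie above WT.

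In the small subunit Mrps23, Mrps18b, Mrps34, Mrps2 and Mrps16 stood lowest. Mrps2, a conserved protein of the head of the subunit, was at 35.5 and 29.9 CPM in SRSF1KO, against 44.0, 50.4 and 44.5 CPM in WT (log2 fold change −0.50 ± 0.17, edgeR adjusted p = 0.249). Mrps16, another conserved protein, was at 38.7 and 35.0 CPM in SRSF1KO, against 56.1, 48.3 and 51.8 CPM in WT (−0.50 ± 0.15, edgeR adjusted p = 0.219). For both genes every SRSF1KO library lay below every WT library. Mrps34, specific to mitochondria, was at 7.85 and 7.83 CPM in SRSF1KO, against 13.7, 10.7 and 9.43 CPM in WT, where replicate 3 came nearest to SRSF1KO (−0.52 ± 0.30, edgeR adjusted p = 0.481). Its log2 fold change was −0.35 without WT replicate 1 and −0.63 without WT replicate 3. Mrps22, also specific to mitochondria, was at −0.28 ± 0.19, without overlap between the groups, and at −0.18 without SRSF1KO replicate 2.

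Mrps23 lies 140348 bases from Srsf1 on chromosome 11 (88194106 to 88211507). This mitochondrion-specific gene was at 37.0 and 42.8 CPM in SRSF1KO, against 61.3, 72.6 and 43.3 CPM in WT. SRSF1KO replicate 2 and WT replicate 3 nearly met, and the log2 fold change was −0.57 ± 0.23 (edgeR, adjusted p = 0.328). The other 10 members on chromosome 11 lie at least 6600012 bases from Srsf1 and had log2 fold changes from −0.45 to 0.09. Whether the position of Mrps23 beside the modified locus bears on its value was not tested.

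Mrps5 had the largest positive difference. This conserved small-subunit protein sits near the path of the messenger RNA, and its gene (ENSMUSG00000027374.12, chromosome 2, 127587426 to 127603986) was at 76.5 and 67.8 CPM in SRSF1KO, against 56.3, 56.6 and 52.0 CPM in WT. Both SRSF1KO libraries were above all WT libraries, and the log2 fold change was 0.39 ± 0.13 (edgeR, adjusted p = 0.255; DESeq2 did not call it). Mrps6, a conserved protein of the subunit's platform, was at 56.1 and 63.8 CPM in SRSF1KO, against 45.3, 53.0 and 48.4 CPM in WT (0.29 ± 0.15, edgeR adjusted p = 0.419). Its span shares 29138 bases with Slc5a3, an inositol transporter gene, so part of its reads may belong to that gene. Mrps9, also conserved, averaged 67.2 ± 0.722 CPM in SRSF1KO (SD, n = 2) and 59.3 ± 5.73 CPM in WT (SD, n = 3), a log2 fold change of 0.18 ± 0.14. Mrps36 averaged 28.0 ± 1.33 CPM in SRSF1KO and 23.1 ± 2.22 CPM in WT, at 0.28 ± 0.19. Mrps12, part of the decoding centre where codon and anticodon meet, was at 41.1 and 39.7 CPM in SRSF1KO, against 41.9, 41.7 and 45.0 CPM in WT. The log2 fold change of −0.08 ± 0.15 did not pass, though the groups did not overlap. Mrps28 was at −0.08 ± 0.20 and Mrps31 at −0.00 ± 0.24.

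Of the 3 paralogs related to bacterial S18, Mrps18b stood lowest. In current ribosome nomenclature Mrps18c carries the name of the bacterial protein, while Mrps18a and Mrps18b carry names of mitochondrion-specific proteins and were classed so here. Mrps18b averaged 9.40 ± 0.830 CPM in SRSF1KO (SD, n = 2) and 13.5 ± 0.989 CPM in WT (SD, n = 3), a log2 fold change of −0.53 ± 0.25 (edgeR, adjusted p = 0.403). Mrps18c was at −0.21 ± 0.24 and the large-subunit paralog Mrps18a at −0.06 ± 0.19, both with overlapping groups. Mrps18c was at 0.06 without SRSF1KO replicate 2 and −0.51 without SRSF1KO replicate 1. For Mrps18a, WT replicate 3 stood at 67.3 CPM, above 48.6 and 47.3 CPM in the other WT libraries, and without it the log2 fold change was 0.13.

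Many of these genes share their promoter region with a neighbour that is read in the other direction. Of the 69 members with a promoter sequence, 24 (34.8%) had a protein-coding partner on the opposite strand whose start site lay upstream at most 1000 bases away. The share was 13.1% among 10050 tested protein-coding genes with a promoter, which were not matched to the members in level. These 24 members formed 23 pairs, since Mrpl46 and Mrps11 are partners of each other. In 8 pairs both genes were negative, in 3 both positive and in 12 the signs differed. The median log2 fold change of the partners outside the family was 0.03, and 0 of the partners passed with edgeR.

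Mrpl46 and Mrps11 stood on opposite sides of WT. Mrpl46, a mitochondrial addition to the large subunit that was chosen after its values were seen, was at 40.6 and 45.4 CPM in SRSF1KO, against 55.6, 57.6 and 58.6 CPM in WT. Mrps11, a conserved protein of the small-subunit platform, was at 36.4 and 37.2 CPM in SRSF1KO, against 30.2, 30.8 and 29.8 CPM in WT. Neither gene had overlapping groups, although they start 41 bases apart in the sequence shown above. The log2 fold changes were −0.41 ± 0.14 for Mrpl46 and 0.28 ± 0.16 for Mrps11 (edgeR, adjusted p = 0.255 and 0.476), and the difference between the genes was not tested.

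Other pairs, picked as examples after their values were seen, had like or unlike signs. Mrps12 and Sars2, whose start sites are 146 bases apart, stood at −0.08 ± 0.15 and −0.23 ± 0.18. Mrpl49 and Fau, which encodes a cytosolic ribosomal protein, were both negative, at −0.40 ± 0.14 and −0.22 ± 0.11. Mrps18b and Ppp1r10, a regulator of protein phosphatase, had unlike signs, with Ppp1r10 at 157.0 and 129.4 CPM in SRSF1KO, against 95.1, 100.4 and 92.1 CPM in WT (log2 fold change 0.58 ± 0.12, edgeR adjusted p = 0.118). Mrpl47 and Ndufb5, a subunit of respiratory complex I, stood at 0.14 ± 0.21 and −0.20 ± 0.11. Apart from shared promoters, 20 members overlap the span of another protein-coding gene, 2 of them (Mrpl43 and Mrps6) over more than 50% of their own. The strand setting and the handling of reads in such overlaps were not stated. These reads may therefore have been counted for either gene or left out.

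**Figure D4:**
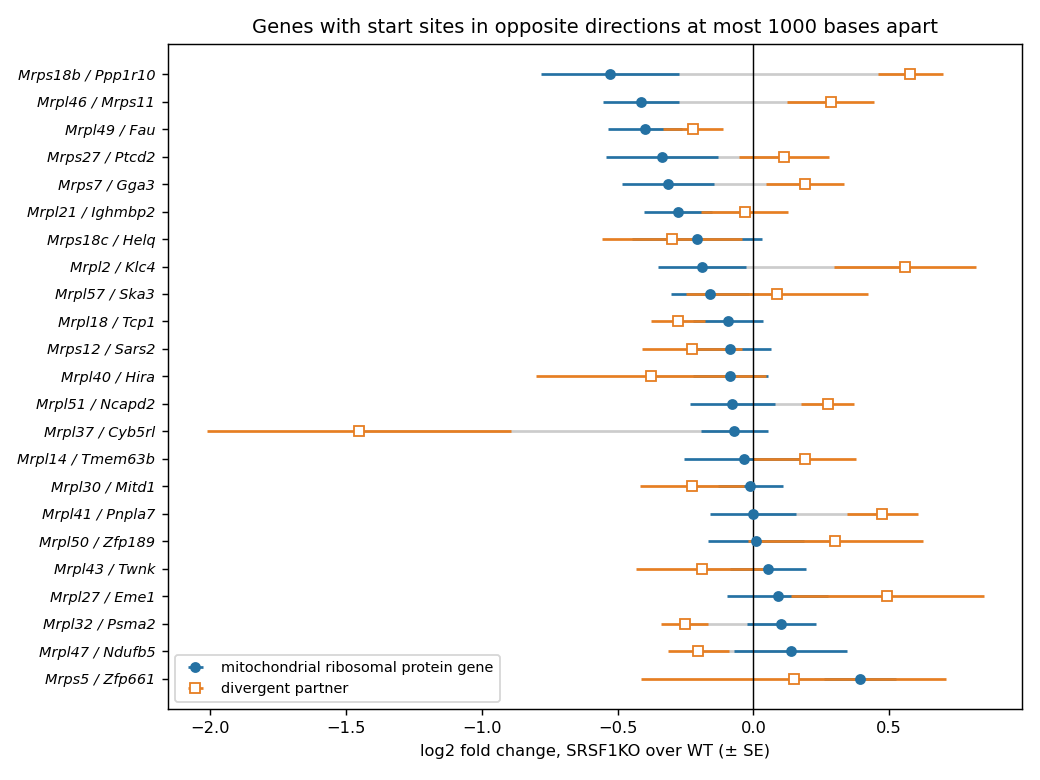
Log2 fold change of SRSF1KO over WT (horizontal axis, ± SE) for the 23 pairs of genes with start sites in opposite directions at most 1000 bases apart, 1 pair per line. Filled circles are mitochondrial ribosomal protein genes and open squares their partners; Mrpl46 / Mrps11 are both of the family and lie at −0.41 and 0.28.

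The promoters were searched for letters bound by factors known to act on nuclear genes for mitochondrial proteins. The share with a match was not tested. Letters bound by NRF1 were also searched in an earlier run, and that result is not reported here. In windows from 250 bases before to 50 after the start site, searched on both strands, CCGGAAG (ETS factors such as GABP) was in 26 of 75 member promoters (34.7%), against 8.86% of all promoters and 11.6% of those of protein-coding genes. ATGGCGG (YY1) was in 13 (17.3%), against 4.05% of all promoters and 5.25% of those of protein-coding genes. The median log2 fold change was −0.16 over the 25 tested members with CCGGAAG and −0.08 over the 43 without it. For ATGGCGG the medians were −0.07 with and −0.15 without, over 12 and 56 members. Both backgrounds also hold promoters of genes that were not tested here, and shares among tested genes alone were not computed. These are matches of letters, not measured binding.

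Genes that act beside the ribosome were read from lists of related function, and differences from the members were not tested. The 5 mitoribosome proteins with other names, Dap3, Ptcd3, Aurkaip1, Chchd1 and Gadd45gip1, stood at a median of −0.17 with all 5 negative and 0 past the edgeR test. Gadd45gip1 was at −0.39 ± 0.21 and Aurkaip1 at −0.18 ± 0.13. For 15 translation factors the median was −0.00, with Gfm1, an elongation factor, at −0.32 ± 0.25 and Mrrf, the ribosome recycling factor, at 0.30 ± 0.23. For 17 mitochondrial tRNA synthetases it was −0.05, with Tars2 at −0.71 ± 0.18 and Yars2 at 0.38 ± 0.18. Among 15 tested genes of mitochondrial transcription and RNA stability it was 0.00, with Grsf1, an RNA granule protein, at 0.58 ± 0.22 and Fastkd3 at −0.52 ± 0.23. None of these lists held a gene called by edgeR.

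Of the lists described here, assembly factors had the widest range. Over the 23 genes the median was −0.06 on the log2 scale, and 0 passed with edgeR. At an unadjusted p under 0.05 in edgeR, 4 of the 23 were lower and 3 higher, against 8.45% and 5.9% of all tested genes. Mrm1, a methyltransferase of the mitochondrial ribosomal RNA, was at 9.16 and 5.23 CPM in SRSF1KO, against 19.1, 19.0 and 25.4 CPM in WT. Neither SRSF1KO library reached the WT range, and the log2 fold change was −1.56 ± 0.32 (edgeR, adjusted p = 0.118). Ngrn, needed for the large-subunit ribosomal RNA, was at 55.6 and 55.2 CPM in SRSF1KO, against 32.0, 37.3 and 41.2 CPM in WT. Both SRSF1KO libraries were above all WT libraries (0.59 ± 0.16, edgeR adjusted p = 0.184).

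Most transcripts of the mitochondrial genome stood slightly on the other side of 0. Of the 13 mitochondrial messenger RNAs, 11 were positive with a median log2 fold change of 0.18, and 0 passed with edgeR. At an unadjusted p under 0.05, 0 were lower and 0 higher, against 8.45% and 5.9% of all tested genes. Without overlap of the groups 0 were lower and 3 higher, against 17.8% and 15.2% of all tested genes. The largest values came from rows with low levels and wide errors, which count fully in the median and the signs. These were mt-Co2 at 0.45 ± 0.47, mt-Atp8 at 0.39 ± 0.91 and mt-Nd4l at 0.35 ± 0.84. Their SRSF1KO means were 3.55, 0.767 and 0.932 CPM, against 2.60, 0.586 and 0.729 CPM in WT. Whether such low counts come from the mapping or counting step was not tested, so they describe counted reads and not transcript levels. mt-Co1, a subunit of cytochrome c oxidase, was at 5194 and 5780 CPM in SRSF1KO, against 3805, 5117 and 4572 CPM in WT (0.29 ± 0.13, edgeR adjusted p = 0.365). mt-Nd4, a subunit of complex I, was at 0.19 ± 0.11. The abundant mt-Cytb was at 0.04 ± 0.10 and mt-Nd1 at −0.09 ± 0.12, both with overlapping groups. The ribosomal RNAs of the small and large subunit, mt-Rnr1 and mt-Rnr2, were at 0.36 ± 0.21 and 0.25 ± 0.13, both with overlapping groups. Reads of mitochondrial RNA took 2.19% and 2.31% of the counts in SRSF1KO, against 1.86%, 2.22% and 1.96% in WT.

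Beside the members, 79 cytosolic ribosomal protein genes stood at a median of −0.41 on the log2 scale. Of these, 77 were negative, 5 called lower by edgeR and 68 lower without overlap. For 36 tested nuclear genes of respiratory complex I the median was −0.20, with 31 negative, 0 called and 20 lower without overlap. In each list 1 gene was higher without overlap. Over all tested genes 50.6% were negative, 0.213% were called lower, and 17.8% were lower and 15.2% higher without overlap. Differences between these lists were not tested.

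**Figure D5:**
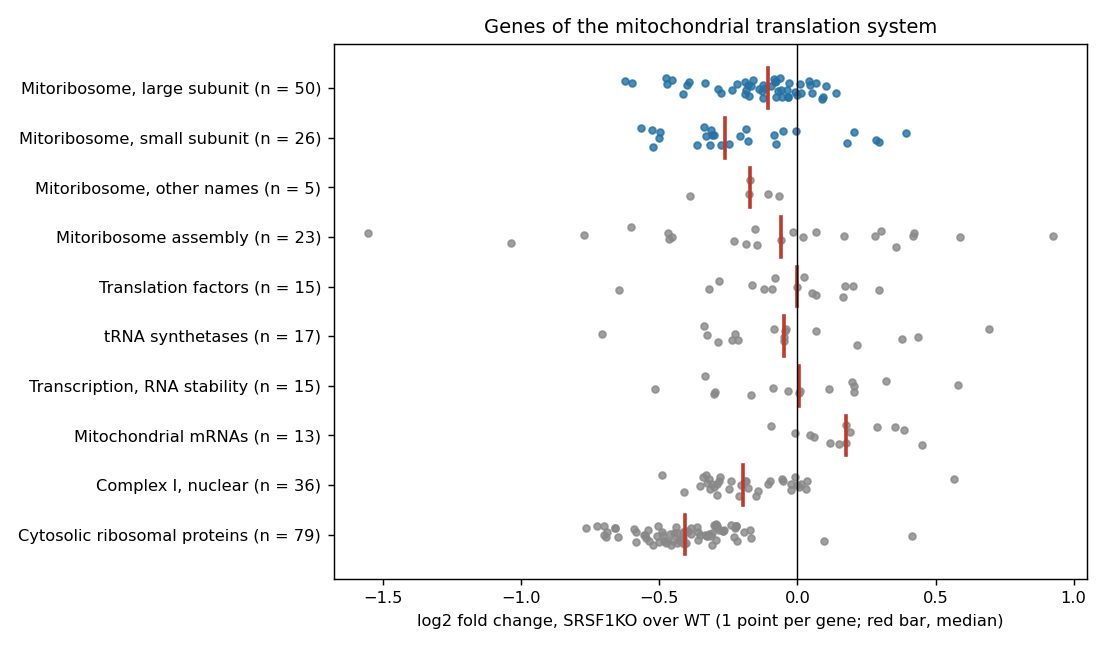
Log2 fold change of SRSF1KO over WT (horizontal axis) for each tested gene (points) and the median (red bar) of the 2 subunits of the mitochondrial ribosome, without Mrps36 (blue), and of other lists (grey). The subunit medians are −0.11 (large) and −0.26 (small), that of mitochondrial messenger RNAs is 0.18 and that of cytosolic ribosomal proteins −0.41.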

How the data were processed

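RNA-seq was measured in 2 SRSF1KO and 3 WT libraries, built by the Smart-seq2 protocol per the labels' protocols. The deposited table holds raw counts of reads per Ensembl gene, per the file headers and values. Per the submitters' processing notes, the tools were Bowtie2 2.1.0, DESeq2 1.20.0, HOMER 4.9.1, HTSeq 0.6.1, cutadapt 1.17, FastQC 0.11.5 and Trim Galore, on mm10, with no roles named. An aligner for these reads, an annotation release and a strand setting were not given in the sources used here.

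Symbols came from a names table (53620 of 53715 IDs matched, 51464 with the same version), and coordinates and promoters from RefSeq tables of GRCm38.p6, the assembly mm10 stands for. No transcript lengths were used, so levels were not compared between genes. Counts were filtered with filterByExpr and TMM-normalised. All 17351 genes were tested two-sided with glmQLFit (robust) and glmQLFTest of edgeR 4.0.16 in R 4.3.3, with group as the only term and Benjamini-Hochberg adjustment over all genes. A standard error is the fold change on the log2 scale divided by the root of the F statistic. Library deviations used log2(CPM + 0.5).

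The alternatives were DESeq2 size factors, upper-quartile factors, no filter, a mean of at least 5 CPM, DESeq2 1.42.0, limma-voom (limma 3.58.1), a replicate block, leaving out each library and, added later, a sex term. The scripts were tested on simulated data. The members, gene lists and tests were chosen with earlier results of these data known. Named members were a fixed set by role, up to 8 with the largest fall and up to 8 with the largest rise among those of at least 5 CPM whose groups were apart, and the 2 nearest to 0. From the other lists the 2 genes with the smallest p were taken; further names there are single examples.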

Additional observations from a re-analysis of the deposited data

How the results depend on the processing

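The median log2 fold change of the mitochondrial ribosomal protein genes was negative in every alternative run, between −0.15 and −0.11, while that of all tested genes lay between −0.07 and 0.02. The gap between the medians was −0.12 as reported and smaller, at −0.05 without a filter, −0.06 without SRSF1KO replicate 2 and −0.08 without SRSF1KO replicate 1; it reached −0.16 without WT replicate 2. The number of members called lower was 2 with DESeq2 and 0 in the other alternatives, and the number higher was 0 in each. Over all tested genes, the counts lower and higher were 7 and 3 with DESeq2 size factors, 346 and 198 without a filter, 233 and 143 with the minimum of 5 CPM on average, 633 and 383 with DESeq2, 62 and 21 with limma-voom, and 5 and 0 with a sex term, chosen after seeing the data. With 1 library left out they lay between 0 and 67 lower and between 0 and 21 higher, namely 0 and 0 without any WT library, 8 and 3 without SRSF1KO replicate 1, and 67 and 21 without SRSF1KO replicate 2. A lone SRSF1KO library is assumed to vary like WT. The libraries share only a replicate number (correlation of deviations −0.056 for number 1 and −0.030 for number 2). Deviations of 2 SRSF1KO libraries from their mean mirror each other, so these correlations cannot decide whether libraries were paired. With the replicate block 0 genes were lower and 0 higher, 914 and 726 at an unadjusted p under 0.05 (5 and 0 of the members, or 6.49% of members lower against 5.27% of all), with a members' median of −0.15. Srsf1 had an adjusted p of 0.0515 with DESeq2 size factors and 0.314 with the replicate block. Signs turned for 9 named genes. Mrpl41 was at 0.017 with DESeq2 size factors and with DESeq2, 0.021 with upper-quartile factors, 0.0043 without a filter, 0.018 with the 5 CPM minimum, 0.0077 with the replicate block and 0.022 with the sex term. Mrps31 was at 0.014 with DESeq2 size factors, DESeq2 and the 5 CPM minimum, 0.016 with upper-quartile factors and 0.00052 without a filter. Mrps18a was at 0.12 with the replicate block. With 1 library left out, log2 fold changes ran from −0.137 to 0.141 for Mrpl41, −0.184 to 0.171 for Mrps31, −0.151 to 0.134 for Mrps18a, −0.455 to 0.0748 for Mrpl12, −0.158 to 0.0906 for Mrpl10, −0.251 to 0.0940 for Mrps28, −0.505 to 0.0593 for Mrps18c, −0.0779 to 0.0244 for Mrpl58 and −0.00242 to 0.138 for Mrpl44. The cause was not tested. At standard errors of 0.11 to 0.30, single changes of the size of the members' median could not be called.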
